A study of Saccharomyces cerevisiae with 12 samples.

Results

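The 10 genes described here encode the oxidative folding machinery of the yeast endoplasmic reticulum (ER), its Hsp70 chaperone system and the transcription factor of the unfolded protein response (UPR). They are ERO1 (YML130C), PDI1 (YCL043C), EUG1 (YDR518W), MPD1 (YOR288C), MPD2 (YOL088C), KAR2 (YJL034W), LHS1 (YKL073W), SCJ1 (YMR214W), JEM1 (YJL073W) and HAC1 (YFL031W), 10 of the 7080 loci that were listed. The genes were chosen by name around ERO1, which was picked from its lower expression in these same tables, so the values below describe the genes and none of them is a test.

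Total mRNA was sequenced from 12 cultures of S. cerevisiae, 3 in control YPD medium and 3 each in YPD with Tet (tetracycline), Dox (doxycycline) or 4-ED (4-epidoxycycline), all drugs at 1.5 µg/ml. The labels name the strain BY4741. The methods name its derivative R1158, a MATa strain with his3-1, leu2-0 and met15-0 mutations that expresses the tetracycline-controlled transactivator tTA from a CMV promoter at URA3. Control and treated cultures therefore all carried tTA, which itself binds tetracyclines. According to the methods the cultures with a tetracycline grew more slowly and all were harvested within the same range of optical density, so drug and growth rate cannot be told apart.

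The tables gave 1 expression value per gene and group, in FPKM, a read measure scaled for the length of the transcript and the size of the library, for the 3 libraries combined. There was no value per culture, so no error, interval or test across replicates could be given, and the number of reads behind a gene is unknown. Each drug had its own table with its own scaling of the same controls, and the control FPKM of the 10 genes differed between tables by 2.12% to 2.44%. All values below are therefore given as a drug and the control of its own table, and the log2 ratio of the pair was taken. All 10 genes were above 1 FPKM in every group. The auxotrophic markers LEU2 and MET17 (the gene of met15-0) were listed at 0 FPKM in all groups. HIS3 was at 63.5 and URA3 at 231 FPKM in the controls of the Tet table. The listed locus of HIS3 (chromosome XV, 721946 to 724725) is longer than its gene of 663 bases, so its value is uncertain. The source of the HIS3 and URA3 reads was not tested. In the same controls the 5 genes listed as MATa markers ran from 35.7 FPKM (BAR1) to 4638 FPKM (MFA2). The 4 MATalpha markers were lower but not at 0, from 4.70 FPKM (STE3) to 33.5 FPKM (MF(ALPHA)2).

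Secreted and membrane proteins fold in the ER, where disulphide bonds are formed by a relay. Pdi1 oxidises cysteines of the client protein, and Ero1, a flavoprotein, reoxidises Pdi1 and passes the electrons to oxygen. Kar2, the yeast BiP, binds unfolded chains together with J-domain partners. When unfolded proteins accumulate, the kinase and nuclease Ire1 removes an intron from HAC1 mRNA, and Hac1 then activates folding genes through UPR elements (UPRE) in their promoters. In yeast KAR2, PDI1, EUG1, LHS1 and ERO1 are known targets of this response.

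The sequences below show the catalytic sites by which the 5 oxidative folding genes differ. They describe the encoded proteins, and a link between these sites and the mRNA ratios was not tested. They were read from the RefSeq R64 genome, the build of the tables, and are coding strand, 5′ to 3′, with the first and last residue of each site in capitals.
ERO1 (chrXIII:12101-12130, minus strand): tgtgtgcaaTGTgatagaTGTagattgtgg
PDI1, first site (chrIII:50021-50050, minus strand): gctccatggTGTggccacTGTaagaacatg
PDI1, second site (chrIII:48986-49015, minus strand): gccccatggTGTggtcacTGTaagagattg
MPD1 (chrXV:852883-852912, minus strand): gctccgtggTGCggccatTGTaagaagctc
MPD2 (chrXV:154560-154589, minus strand): acttcttggTGCcaacatTGTaaaactctg
EUG1, first site (chrIV:1478782-1478811, plus strand): gctccatggTGTttgcatTCTcagatctta
EUG1, second site (chrIV:1479811-1479840, plus strand): gcgacatggTGTattcatAGTaaaaggttt
PDI1, MPD1 and MPD2 encode a pair of cysteines around a second residue that is histidine, with 2 such sites in PDI1 and 1 each in MPD1 and MPD2. Both EUG1 sites end in a serine codon (TCT and AGT) in place of the second cysteine. ERO1 holds a different site, a cysteine pair around a pair of other residues that begins at codon 352 of its 563, and 14 cysteine codons in all. The coding sequences of PDI1, EUG1, MPD1, MPD2, KAR2 and LHS1 end in codons for the ER retrieval signal HDEL and that of SCJ1 in codons for KDEL, whereas those of ERO1, JEM1 and HAC1 end in neither.

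ERO1 (chromosome XIII, 11483 to 13174) was the only one of the 10 genes past 1.5-fold with any drug, and it was lower with all 3. It stood at 39.1 FPKM in the controls and 22.0 FPKM with Tet. In the Dox table it stood at 39.8 FPKM in the controls and 21.3 FPKM with Dox. In the 4-ED table it stood at 38.8 FPKM in the controls and 22.7 FPKM with 4-ED. The level with a drug was thus 56.2% of the control with Tet, 53.5% with Dox and 58.6% with 4-ED, at log2 ratios of -0.83, -0.90 and -0.77. In yeast ERO1 is an essential gene.

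Of all loci with at least 1 FPKM in both groups, 1.46% were 1.5-fold or more lower with Tet, 2.88% with Dox and 2.15% with 4-ED, against 1 of the 10 genes in each table. A shift of all ratios bears on the Tet shares, which were 1.46% lower and 3.65% higher and became 2.01% and 2.64% once the ratios were centred on their median. Because ERO1 was picked for its lower expression in these tables, its count here and its rank below describe that choice and are no test. A lower ratio than that of ERO1 was found for 38 of 6516 loci with Tet, 61 of 6502 with Dox and 54 of 6511 with 4-ED. Among loci at 10 FPKM or more in both groups these numbers were 28, 30 and 34. Of the 6470 loci with a ratio in all 3 tables, 20 (0.309%) were past 1.5-fold lower with every drug, and ERO1 was among them. The 3 tables share their controls, so the likeness of the 3 ratios is not 3 separate observations. In these pooled cultures, less ERO1 mRNA in every cell and fewer cells expressing it cannot be told apart.

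**Figure D1:**
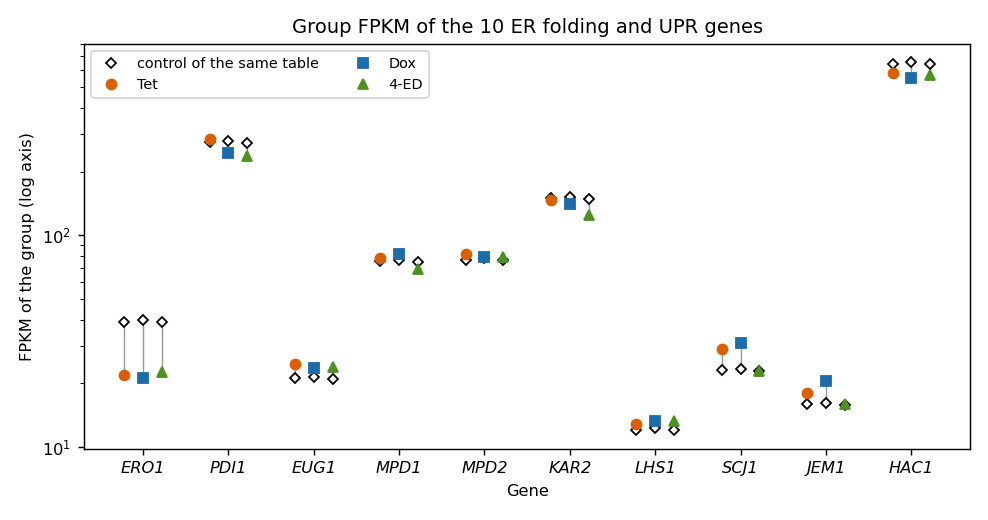
Group FPKM of the 10 genes on a log axis, with the control of each table as an open diamond and the drug of that table as a filled symbol joined to it. Each symbol is 1 deposited value for 3 combined libraries, without error bars, and ERO1 shows the widest gap, from about 39 to about 22 FPKM in each table.

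The direct partner of Ero1 did not share this size of difference. PDI1, the main disulphide isomerase and the second most abundant of the 10 mRNAs per length, was at 274 FPKM in the controls and 284 FPKM with Tet. It was at 279 FPKM in the controls and 245 FPKM with Dox, and at 273 FPKM in the controls and 236 FPKM with 4-ED. The log2 ratios were 0.05, -0.19 and -0.21, inside the range that held the middle 90% of all loci. As a result the PDI1 level was 7.01 times that of ERO1 in the controls of the Tet table and 12.9 times with Tet. The same quotient went from 7.01 to 11.5 with Dox and from 7.02 to 10.4 with 4-ED.

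PDI1 shares its listed locus (chromosome III, 48653 to 52340) with GLK1, YCL041C and YCL042W, although the gene itself ends at 50221. GLK1, a glucokinase, was at 2744 FPKM in the controls and 2221 FPKM with Tet, and its log2 ratios were -0.31, -0.65 and -0.65 with Tet, Dox and 4-ED. How reads were divided within that locus was not tested, so the PDI1 values are less certain than those of ERO1, which has its listed locus to itself.

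The 3 other isomerases of the family were close to their controls. EUG1, whose product lacks the second cysteine of each site, was somewhat higher with each drug, at 21.1 FPKM in the controls and 24.8 FPKM with Tet (log2 ratio 0.23). It was at 21.5 FPKM in the controls and 23.7 FPKM with Dox (0.14), and at 21.0 FPKM in the controls and 23.9 FPKM with 4-ED (0.19). MPD1 was at 75.5 FPKM in the controls of the Tet table, and its log2 ratio was 0.04 there, 0.08 in the Dox table and -0.12 in the 4-ED table. MPD2, at 76.7 FPKM in the same controls, had log2 ratios of 0.09, 0.01 and 0.05. The levels of MPD1 and MPD2 in the controls differed only 1.02-fold, and without replicate values their order is undecided. None of the 4 isomerase genes was more than 0.32 from its control on the log2 scale with any drug.

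Among the chaperones, KAR2 (BiP) was at 149 FPKM in the controls and 147 FPKM with Tet. It was at 152 FPKM in the controls and 140 FPKM with Dox, and at 148 FPKM in the controls and 125 FPKM with 4-ED. These levels correspond to log2 ratios of -0.02, -0.11 and -0.25. LHS1, an Hsp70-like protein that exchanges the nucleotide of Kar2, had the lowest level of the 10 genes, 12.1 FPKM in the controls and 12.9 FPKM with Tet. Its log2 ratios were 0.09, 0.11 and 0.15.

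The J-domain genes SCJ1 and JEM1 were the only genes of the 10 with a log2 ratio above 0.32, a lower bar than 1.5-fold, and neither passed it with 4-ED. SCJ1, whose product is a soluble J-protein of the ER lumen, was at 23.1 FPKM in the controls and 29.1 FPKM with Tet. It was at 23.5 FPKM in the controls and 30.9 FPKM with Dox, but at 22.92 FPKM both in the controls and with 4-ED. The level was thus 126% of the control with Tet and 131% with Dox. The Tet ratio of 0.33 lay so close to the bar that centring (0.26) or a pseudocount of 1 FPKM (0.3214 against 0.3219) took it below. JEM1, a J-protein of the ER membrane that also serves in nuclear fusion during mating, was at 15.9 FPKM in the controls and 18.0 FPKM with Tet. It was at 16.2 FPKM in the controls and 20.6 FPKM with Dox, and at 15.8 FPKM in the controls and 16.1 FPKM with 4-ED. Its log2 ratios were 0.17, 0.35 and 0.02.

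A log2 ratio of 0.32 or more was common among all loci. It was reached by 16.1% of loci with Tet, 8.24% with Dox and 12.5% with 4-ED, against 1, 2 and 0 of the 10 genes. Log2 ratios of -0.32 or less were found for 5.56%, 11.7% and 9.18% of loci, and among the 10 genes for ERO1 alone with each drug. Levels at least 1.5-fold higher were found for 3.65% of loci with Tet, 1.77% with Dox and 4.96% with 4-ED, and for 0 of the 10 genes in each table.

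**Figure D2:**
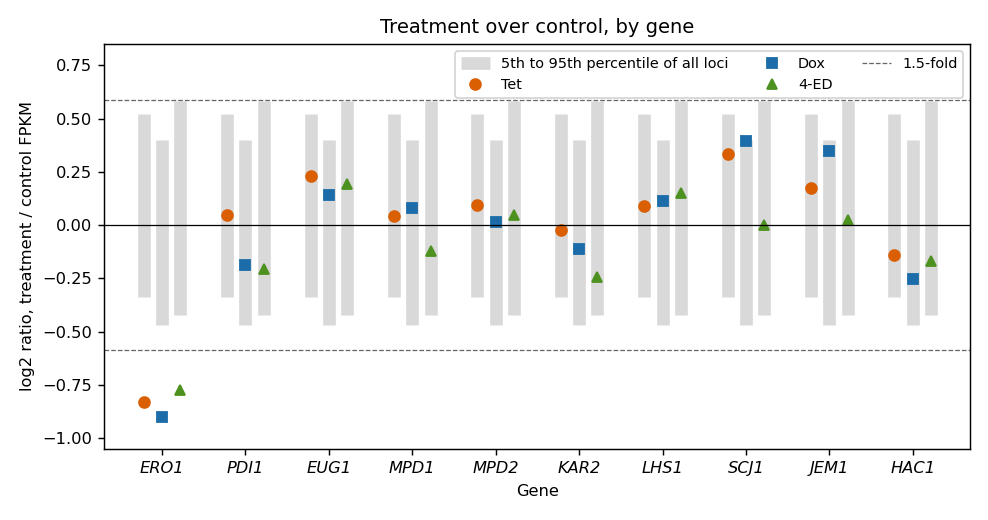
The log2 ratio of drug to control FPKM for each of the 10 genes, with Tet, Dox and 4-ED as separate symbols, grey bars for the 5th to 95th percentile of all loci in the same table and dashed lines at 1.5-fold. ERO1 lies below the grey bar with all 3 drugs, at -0.77 to -0.90, and the other 9 genes lie inside it.

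HAC1, the transcription factor gene of the UPR, had the highest level of the 10, with 645 FPKM in the controls and 585 FPKM with Tet. It was at 655 FPKM in the controls and 550 FPKM with Dox, and at 641 FPKM in the controls and 571 FPKM with 4-ED. The log2 ratios of -0.14, -0.25 and -0.17 were lower than the median of all loci in each table but within the middle 90%. The listed locus of HAC1 (chromosome VI, 74872 to 76147) begins before the RefSeq gene at 75179 and is shared with YFL032W and YFL031C-A. YFL031C-A had 26201 FPKM in the controls and 20688 FPKM with Tet, with log2 ratios of -0.34, -0.37 and -0.39. How the reads of this locus were divided between HAC1 and YFL031C-A was not tested, and the HAC1 values are uncertain for that reason.

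A value per gene also cannot show how much HAC1 mRNA was spliced. The intron spans 252 bases, and the bases next to its ends are shown with the intron in capitals, since the UPR acts on this mRNA by its removal.
5′ junction (chrVI:75825-75854, plus strand): attggcgtaatccagCCGTGATTACGATGA
3′ junction (chrVI:76077-76106, plus strand): TGCTTGTACTGTCCGaagcgcagtcaggtt
The tables held no count of reads across these junctions.

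Over the 10 genes the log2 ratios had a median of 0.07 (Tet), 0.05 (Dox) and -0.06 (4-ED), beside 0.07, -0.03 and -0.01 over all loci. Of the 10 genes, 7 were above their control with Tet, 6 with Dox and 4 with 4-ED. PDI1 and MPD1, counted among the 7, fell below 0 with Tet once the ratios were centred. Across all loci 64.1%, 44.9% and 47.4% were above their control. Without ERO1 the other 9 genes ranged from -0.14 to 0.33 with Tet, from -0.25 to 0.39 with Dox and from -0.25 to 0.19 with 4-ED. ERO1 was therefore the gene that stood apart from its own group, which was described here after ERO1 had been picked for that difference.

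The promoters were searched for UPR elements over the 500 bases before the start codon, on both strands, in 6000 nuclear protein-coding genes. The core of the element first described in KAR2, CAGCGTG, was found before 2 of the 10 genes, KAR2 and LHS1, and before 2.32% of all genes. A second form, TACGTG, was found before ERO1, EUG1 and MPD1, 3 of the 10, and before 13.1% of all genes. The core of the heat shock element, GAANNTTC, was found before KAR2, MPD2 and HAC1, 3 of the 10, and before 19.2% of all genes. The matches to the 2 forms of the UPR element are shown, followed by the levels of the genes that hold them. Sequences follow the direction of the gene, with the match in capitals, so that a match on the other strand reads as CACGCTG or CACGTA.
KAR2 (chrX:381156-381185, plus strand, 160 bases before the start codon): gaggaactggaCAGCGTGtcgaaaaagttg
LHS1 (chrXI:296320-296349, plus strand, 99 bases before): ataatatcgaaCACGCTGttataaaagtga
ERO1 (chrXIII:13296-13325, minus strand, 139 bases before): aacgatacggagTACGTGtcataaaaactt
EUG1 (chrIV:1478422-1478451, plus strand, 174 bases before): ttcccttcaaaaCACGTAaacgatagttgg
MPD1 (chrXV:853162-853191, minus strand, 102 bases before): aattaaaattgaCACGTAaaagttaaataa
ERO1 was at 53.5% to 58.6% of its control. EUG1 and MPD1, which hold the same letters, were at 110% to 117% and at 91.9% to 106%. KAR2 and LHS1 were at 84.3% to 98.6% and at 106% to 111%. A match of this kind is a description of the letters and not a site shown to be bound, and its part in the ratios was not tested.

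The 85 other genes of the pathway were taken from 8 lists of ER and related functions. Past 1.5-fold, 1 of the 85 was higher with Tet and 1 with Dox, in both cases INO1 of inositol synthesis, beside 3.65% and 1.77% of all loci. With centred ratios INO1 was at 0.55 with Tet, under 1.5-fold, and the number with Tet was 0. With 4-ED 2 were higher, SSS1 and OST4, beside 4.96% of all loci. None of the 85 was 1.5-fold lower with Tet, Dox or 4-ED, beside 1.46%, 2.88% and 2.15% of all loci. The median log2 ratio of the 85 was 0.07, -0.03 and -0.01 with Tet, Dox and 4-ED, the same to 2 decimals as over all loci. The 5 genes of the list for UPR signalling and its control were all within 0.32 of their controls on the log2 scale with Tet and Dox. IRE1 itself, the sensor, had log2 ratios of 0.03, 0.14 and -0.18 at a control level of 14.1 FPKM in the Tet table. PTC2, a phosphatase that opposes Ire1, was the lowest of the 5 with each drug, at -0.27, -0.24 and -0.34. TPT1, which completes the splicing of tRNA and of HAC1, was the highest with Tet and 4-ED (0.15 and 0.08), and the ligase gene TRL1 with Dox (0.20).

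Of 8 further folding genes of the ER lumen, none passed 1.5-fold. ERV2, the other sulphydryl oxidase of the yeast ER, was at 317 FPKM in the controls of the Tet table and had log2 ratios of 0.17, -0.02 and 0.06. The listed locus of ERV2 (chromosome XVI, 646448 to 648375) is longer than its gene of 591 bases. How reads were divided there was not tested, so its values are uncertain. The listed loci of TRL1, GRX2, PTC2, CNE1, SSM4, SEC61 and OST2, among others, are also longer than their genes. How reads were divided in them was not tested either. ERJ5, a further J-protein gene, was the highest of the 8 with each drug, at 0.25, 0.23 and 0.34. The lowest were SIL1, a nucleotide exchange factor of Kar2, with Tet (-0.14), the prolyl isomerase gene CPR5 with Dox (-0.26) and the calnexin gene CNE1 with 4-ED (-0.31). The 17 genes of ER-associated degradation, which removes misfolded proteins, had medians of 0.03, -0.08 and -0.07. Their ratios ran from -0.09 (SSM4) to 0.22 (HTM1) with Tet and from -0.31 (CDC48) to 0.28 (MNL2) with Dox. With 4-ED they ran from -0.18 (HRD3) to 0.36 (DER1).

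In the translocon and signal peptidase list of 13 genes, SSS1, a small subunit of the Sec61 channel, was the highest with each drug. It was at 969 FPKM in the controls and 1337 FPKM with Tet, a log2 ratio of 0.46. The ratios were 0.27 with Dox and 0.62 with 4-ED, from 962 to 1480 FPKM. The large channel subunit gene SEC61 was the lowest with 4-ED (-0.38), SEC63 with Tet (-0.15) and SEC72 with Dox (-0.33). In the N-glycosylation list of 13 genes, OST4, the smallest subunit of oligosaccharyltransferase, was at 121 FPKM in the controls and 226 FPKM with 4-ED. Its log2 ratio was 0.90 with 4-ED, 0.34 with Tet and 0.05 with Dox. The lowest were OST3 with Tet and Dox (-0.19 and -0.36) and OST2 with 4-ED (-0.27), while CWH41, glucosidase I, was the highest with Dox (0.33).

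SSS1 and OST4 have coding lengths of 243 and 111 bases. Of all protein-coding genes under 500 bases, 13.1% were past 1.5-fold higher with 4-ED, beside 1.11% of those from 500 bases up. With Tet these shares were 5.51% and 2.00%, and with Dox 3.07% and 0.953%. The part of gene length in the values of SSS1 and OST4 was not tested. ERO1 has a coding length of 1692 bases, a class in which 0.615% of genes were past 1.5-fold lower with Tet, 1.45% with Dox and 1.57% with 4-ED.

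In the ER exit list of 14 genes, SEC12 had the lowest ratio with each drug. SEC23, SEC24, ERV14 and ERV29 were also below their controls with all 3 drugs, by smaller amounts. SEC12, the exchange factor that loads the GTPase Sar1 and so starts COPII vesicles, was at 18.2 FPKM in the controls and 13.7 FPKM with Tet. It was at 18.5 FPKM in the controls and 13.4 FPKM with Dox, and at 18.1 FPKM in the controls and 13.5 FPKM with 4-ED. Its log2 ratios of -0.41, -0.47 and -0.42 were the lowest of the 85 genes in each table, and did not reach 1.5-fold. The highest of the list were the cargo receptor genes EMP24 with Tet (0.36) and ERP2 with Dox (0.37), and the HDEL receptor gene ERD2 with 4-ED (0.32). The 8 genes of cytosolic thiol redox, which use glutathione and thioredoxin, were all within the same 0.32. They ran from -0.13 (GSH1) to 0.19 (GLR1) with Tet, from -0.29 (GRX2) to 0.07 (GSH2) with Dox and from -0.06 (GSH2) to 0.22 (TRX1) with 4-ED.

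**Figure D3:**
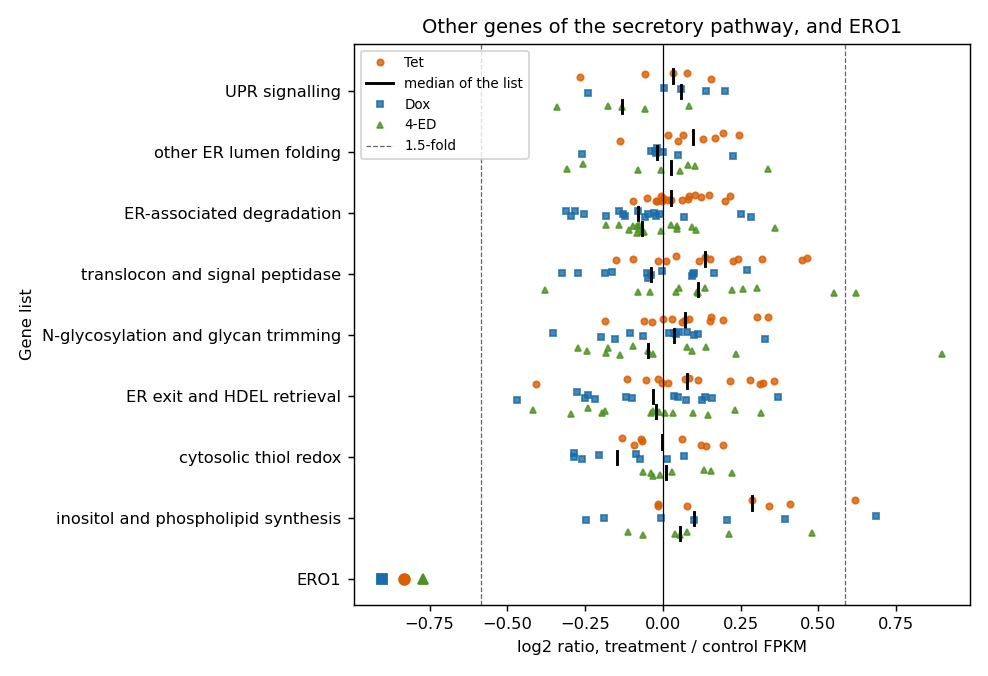
The log2 ratio of drug to control FPKM for each of the 85 genes in 8 lists, with 1 symbol per gene and drug, a black bar for the median of a list and dashed lines at 1.5-fold. The bottom row gives ERO1 at -0.77 to -0.90, to the left of all genes in the lists, whose lowest is SEC12 at -0.47.

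The 3 compounds were compared at the same concentration through the difference of their log2 ratios, in 3 pairs of drugs for each gene. Dox and 4-ED are epimers that differ in the configuration at a single carbon, and Tet and Dox differ in the position of a hydroxyl group. No interval or test of these differences could be given. For ERO1 the differences were 0.07 for Tet minus Dox (-0.03 once the ratios were centred), -0.06 for Tet minus 4-ED (-0.15 centred) and -0.13 for Dox minus 4-ED (-0.12 centred). Over all loci the medians were 0.11, 0.08 and -0.03, so that ERO1 lay within 0.15 of the median of all loci for each pair. Without replicate values this does not show that the compounds act alike on ERO1.

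The genes with the widest difference between the epimers were SCJ1 and JEM1, higher with Dox than with 4-ED by 0.39 and 0.33. They were the only genes of the 10 at least 0.32 apart on the log2 scale for that pair, beside 21.3% of all loci. For Tet minus 4-ED, SCJ1 alone passed 0.32 (at 0.33), beside 17.1% of all loci. It no longer did so once the ratios were centred (0.25) or with a pseudocount of 1 FPKM (0.3214 against the exact bar of 0.3219). With that pseudocount the Dox minus 4-ED difference of JEM1 was 0.31 and also under the bar. For Tet minus Dox 0 of the 10 genes did, beside 11.4% of all loci. JEM1 was lowest for that pair, at -0.18, and 5.66% of all loci lay lower. PDI1 was highest, at 0.24. None of the 10 genes was 1.5-fold apart for any pair of drugs.

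**Figure D4:**
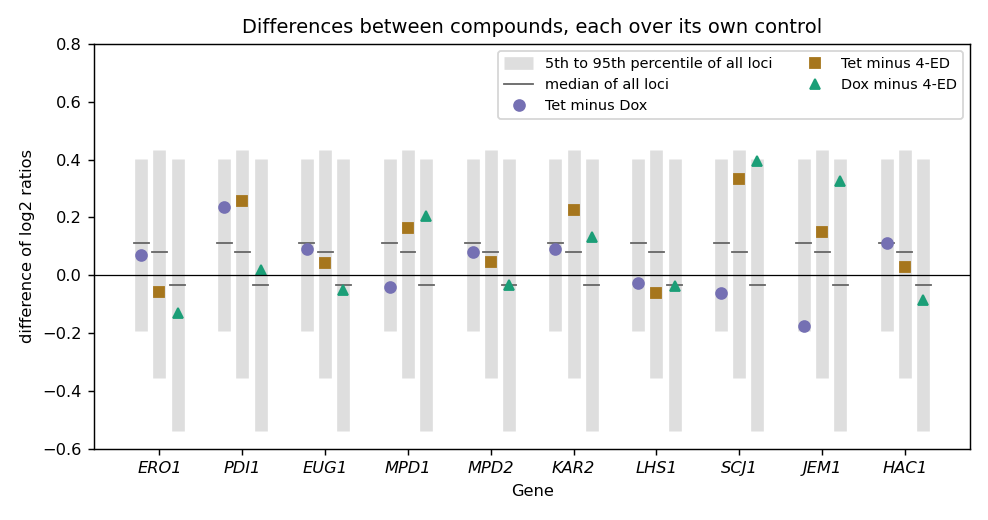
Differences of the log2 ratios for Tet minus Dox, Tet minus 4-ED and Dox minus 4-ED in each of the 10 genes, with grey bars for the 5th to 95th percentile and a short line for the median of all loci. All points lie inside the bars, and SCJ1 and JEM1 lie highest for Dox minus 4-ED, at 0.39 and 0.33.

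The genes next to ERO1 on chromosome XIII did not show ratios of the same size. YML131W, 187 bases away, had log2 ratios of -0.26, -0.40 and -0.24 with Tet, Dox and 4-ED. On the other side COX14, 1366 bases away and needed for cytochrome oxidase assembly, had ratios of 0.14, -0.06 and 0.04. COS3 lay between -0.11 and 0.03 and MSC1 between -0.56 and -0.27.

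The loci whose 3 ratios were closest to those of ERO1, by Euclidean distance over the 3 comparisons, were sought among 5834 loci whose mean FPKM reached 10 in every table. They were PDE2, a cAMP phosphodiesterase (distance 0.08), TDA1, a protein kinase (0.14), and SCW11, a cell wall glucanase (0.15). YJL052C-A (0.17) and VID24, a subunit of the GID ubiquitin ligase (0.18), followed. PDE2 was at 57.3 FPKM in the controls and 33.8 FPKM with Tet, with log2 ratios of -0.76, -0.93 and -0.78. None of the 5 is among the 10 genes and the 85 genes of the lists. The distance rests on 3 values per gene that share their controls.

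**Figure D5:**
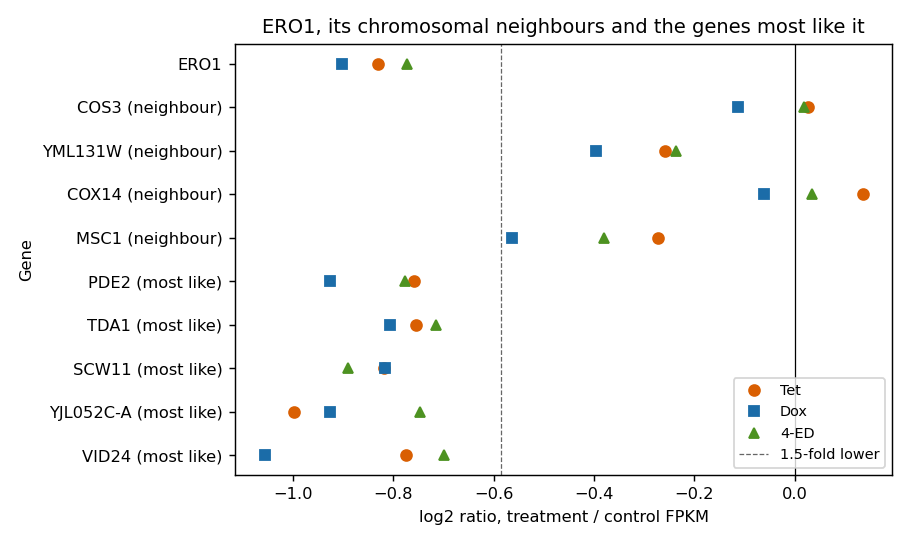
The log2 ratio of drug to control FPKM for ERO1, the 4 listed loci nearest to it on chromosome XIII and the 5 loci with the most similar ratios, with a dashed line at 1.5-fold lower. The 4 neighbours lie between -0.56 and 0.14, and the 5 similar loci, chosen for likeness, between -0.70 and -1.06.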

How the data were processed

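Poly(A) RNA from 12 cultures was sequenced by the authors, mapped with Bowtie2 to R64 and quantified with Cuffdiff against the Ensembl annotation, with tool versions not given in the sources used here. The authors deposited 3 gene tables, 1 per drug, with FPKM for control and drug, each for 3 combined libraries and scaled within the table. Their columns of log2 fold change, test statistic, p-value, q-value, significance and test status were not used. Samples were grouped by the treatment label.

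The log2 ratio of drug to control FPKM was taken without a pseudocount for loci that reached 1 FPKM in control and drug, and a locus was counted past 1.5-fold or past 0.32 on the log2 scale. No test was made. Symbols came from RefSeq, which matched 5999 of 7080 identifiers. Alternatives were a pseudocount of 1 FPKM, centring, other minimum levels and other folds. The steps were tested on simulated data. The 10 genes and all lists were chosen with earlier results of these data known. Named genes were the 10 genes, every list gene past 1.5-fold, the lowest and highest of each list per table, and the 5 loci most like ERO1. IRE1, ERV2 and the neighbours of ERO1 were added for their role or position, the genes that share a listed locus for their overlap, and auxotrophy and mating-type markers to check the strain. Python 3.11.15, numpy 2.4.6, pandas 2.3.3 and matplotlib 3.10.9 were used. The sequence of 1 coding site is not reported here.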

Additional observations from a re-analysis of the deposited data

How the results depend on the processing

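No paired analysis was possible because the tables hold 1 combined value per group and none per culture, and leaving out a replicate could not be done for the same reason. The log2 ratios of the 10 genes and of INO1, OST4 and SSS1 moved by at most 0.07 under a pseudocount of 1 FPKM or centring on the median, within the 0.1 taken as no change. Some signs near 0 turned all the same. With Tet, centring took PDI1 from 0.05 to -0.02, MPD1 from 0.04 to -0.03 and the median of the 10 genes from 0.07 to -0.003. With 4-ED it took SCJ1 from -2.5e-05 to 0.02. The numbers past 1.5-fold were the same or within 1.5 times under a pseudocount, without a minimum level and at 10 FPKM, as was the share of all loci. Centring left 0 of the 85 pathway genes past 1.5-fold higher with Tet, where INO1 had been the only such gene. At 2-fold, 0 of the 10 genes were lower with Tet, Dox or 4-ED, since ERO1 did not reach it, and 0 pathway genes were higher with any drug. At 0.32 on the log2 scale, 1 of the 10 genes (SCJ1) was higher with Tet and 2 with Dox. SCJ1 with Tet fell below that bar when centred (0.26) or with the pseudocount (0.3214 against 0.3219). At that bar 8 pathway genes were higher and 1 lower with Tet, 4 higher and 3 lower with Dox, and 6 higher and 3 lower with 4-ED, of 85 genes. Of all loci 16.1% were higher and 5.56% lower with Tet, 8.24% and 11.7% with Dox, and 12.5% and 9.18% with 4-ED. Centring moved the Tet minus Dox difference of each of the 10 genes by 0.10, and that of ERO1 from 0.07 to -0.03. The signs for KAR2, EUG1 and MPD2 turned as well, to -0.01, -0.01 and -0.02. For Tet minus 4-ED centring turned the signs for EUG1 (0.04 to -0.05), HAC1 (0.03 to -0.06) and MPD2 (0.05 to -0.04), and took SCJ1 from 0.33 to 0.25.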

Other observations

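The last of the 8 lists, 7 genes of inositol and phospholipid synthesis that supply ER membrane, had a median log2 ratio of 0.29 in the Tet table, 0.10 in the Dox table and 0.06 in the 4-ED table. INO1, which makes inositol phosphate and in yeast is linked to Ire1 and Hac1, was at 173 FPKM in the controls and 266 FPKM with Tet. It was at 176 FPKM in the controls and 283 FPKM with Dox, but at 172 FPKM in the controls and 159 FPKM with 4-ED. Its log2 ratios were 0.62, 0.68 and -0.11, so that INO1 was past 1.5-fold higher with Tet and Dox, beside 3.65% and 1.77% of all loci. With centred ratios it was at 0.55 with Tet and no longer past 1.5-fold. INO4, which encodes an activator of INO1, was the highest of the list with 4-ED (0.48), and OPI3, a phospholipid methyltransferase gene, the lowest with Tet and Dox (-0.02 and -0.25). INO4 has a coding length of 456 bases. Of protein-coding genes under 500 bases, 13.1% were past 1.5-fold higher with 4-ED, beside 1.11% of longer ones. The part of gene length in the INO4 value was not tested. The difference between the drugs was not tested, since the tables hold 1 value per group.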
